A study of Zea mays with 24 samples.

Results

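Zm00001d032319, Zm00001d037625 and Zm00001d050245 are 3 maize genes that the study of leaf alternative splicing (AS) placed among genes of the splicing machinery with differential alternative splicing (DAS). The study grouped Zm00001d032319 as a U1-related splicing factor, Zm00001d037625 as a factor associated with the U4/U6.U5 tri-snRNP, and Zm00001d050245 with SR34 among the serine/arginine-rich (SR) regulators. Every event carrying one of these gene IDs was taken, which gave 13 events out of 31439 in 9725 genes. The younger leaves contributed 12 events of 22077, the older leaves 11 of 28092, and 10 of the 13 were listed at both stages.

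All plants were the inbred line W22, a standard line of maize genetics, with no mutant or transgenic group. They grew in chambers that were warmed each day to a set peak, called the maximum daily temperature (MDT), which was 31°C in the coolest group, 37°C in the warmest, and 33°C and 35°C in the groups between. Leaf blade without midrib was taken from the newest fully expanded leaf at stage V4 (20 days after germination, DAG) and at V5 (27 DAG). Each of the 8 groups held 3 RNA-seq libraries, which the paper calls biological replicates, and each MDT had duplicate chambers. The labels do not say which chamber a library came from, so a p-value covers only the spread between these libraries. The 2 stages were collected on different days and processed into separate tables, and stage and anything else that differed between the 2 sets cannot be told apart. Reads of W22 were placed on the genome of another inbred line, B73 (RefGen_V4), and the part of sequence differences between the lines in these values was not tested.

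The spliceosome removes introns in steps. The U1 particle binds the 5′ splice site early, and the tri-snRNP joins later, before the catalytic steps. SR proteins bind RNA and steer the choice of splice sites, and plant SR genes are known for being alternatively spliced themselves.

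Each event has an inclusion form, which keeps a stretch of RNA, and a skipping form, which lacks it. The inclusion level ψ is the share of the inclusion form after each read count is divided by the length over which a read could fall. Event types are exon skipping (ES), intron retention (IR), alternative 5′ splice sites (A5SS) and alternative 3′ splice sites (A3SS). A library has a value only where at least 1 read of each form was counted. A missing library may thus be one in which a form had no reads. Levels at either extreme can therefore be absent, and group means cover only the libraries with a value. Reads counted over all events ranged from 1782688 to 2818842 per library at V4 and from 2662780 to 3378578 at V5. An event was called when the false discovery rate (FDR) of a quasi-binomial test, adjusted over all events of its type, was at most 0.01 and mean ψ differed by more than 5 percentage points.

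The genes were listed because they passed the study's own DAS criteria against 31°C MDT, for Zm00001d032319 at V4 at 37°C, for Zm00001d037625 at V5 at 35°C, and for Zm00001d050245 at V4 at 35°C and 37°C and at V5 at 35°C. Temperature differences of a gene in the stage that chose it are therefore described without a test. Tests are given for the other stage and for the comparison of V5 with V4. For events that could have led to the choice, stage comparisons that reuse those libraries are also given without a test.

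The clearest pattern in these genes was a stage difference in Zm00001d037625. In 4 of its 5 events the V5 libraries lay below the V4 libraries at every MDT without overlap, with mean differences in ψ from -17.8 to -41.2 points. Among all events tested in the series the stages did not overlap in 23.4%, 31.6%, 30.0% and 23.8% of events from 31°C to 37°C. In Zm00001d050245 a 761-base intron was retained more at V5 at 31°C, 33°C and 35°C. The large A3SS event of the same gene had a mean ψ of 34.1% at 31°C and 12.0% at 37°C at V4, and of 34.5% and 24.9% at V5. Zm00001d032319 rested on few skipping reads and passed none of its quasi-binomial tests.

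The 5 events of Zm00001d037625 lie in 1 stretch of chromosome 6, on the minus strand, and most of them are alternatives to the same splice. The skipping form removes a 424-base intron, chr6:132208577-132209000. The 335-base A5SS keeps the upstream 335 bases of it, chr6:132208666-132209000, by using a 5′ splice site nearer to the downstream exon. IR of 424 bases keeps the whole stretch. A second A5SS keeps the first 60 bases, chr6:132208941-132209000. The ES event holds a separate 60-base exon, chr6:132208666-132208725, whose 5′ splice site is that of the 335-base A5SS. The IR event of 275 bases, chr6:132208726-132209000, is the part between the upstream exon and that 60-base exon.

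**Figure D1:**
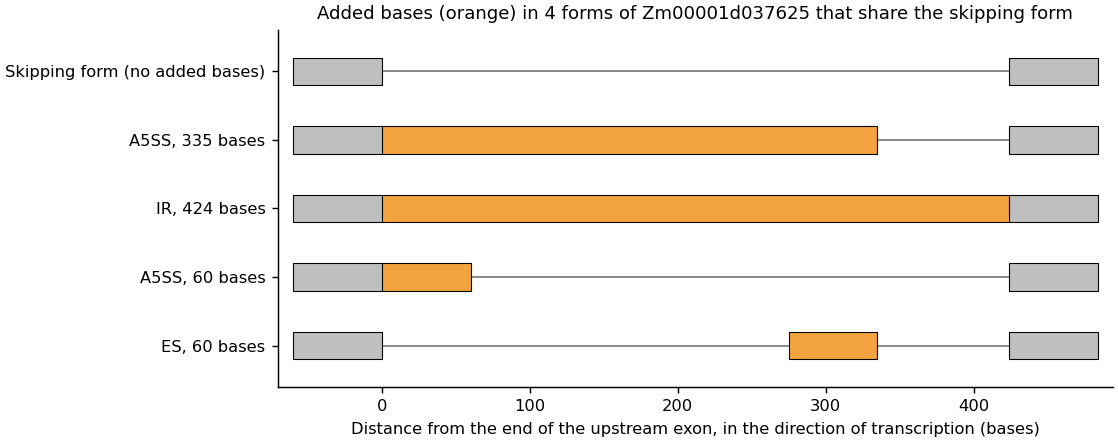
Map of 4 events of Zm00001d037625, drawn to scale in the direction of transcription, with distance in bases from the end of the upstream exon on the horizontal axis. Grey boxes are the flanking exons (cut short), orange boxes the bases that each inclusion form keeps, and lines the removed bases. The 4 inclusion forms keep 335, 424, 60 and 60 bases of the same 424-base intron.

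The added lengths of both 60-base forms are multiples of 3, and those of 335, 424 and 275 bases are not. Whether the stretch lies in coding sequence is not given in the sources used here. The skipping reads of the 335-base A5SS, the 60-base A5SS, the 424-base IR and the 60-base ES were equal in 24 of 24 libraries, because all 4 use the same junction. These 4 events are therefore not independent of each other. Reads inside the 60-base exon can also come from the forms that keep the longer stretch. The first 60 bases of the intron are kept by the 335-base A5SS, the 424-base IR and the 60-base A5SS alike. A read inside them cannot be assigned to 1 of these forms. The 275-base IR has another skipping junction and shares skipping reads with none of them. It is still not independent of them. Its skipping junction joins the upstream exon to the 60-base exon, as in the inclusion form of the ES. Its 275 bases and that exon together make the stretch kept by the 335-base A5SS.

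In the 335-base A5SS of Zm00001d037625, which had the most reads of the gene, ψ at V4 was 58.4, 57.4 and 73.7% at 31°C, 66.4, 60.3 and 69.4% at 33°C, 55.4, 54.9 and 47.4% at 35°C, and 69.1, 60.6 and 59.9% at 37°C. At V5 the same event stood at 41.6, 41.4 and 35.8% at 31°C, 29.8, 23.8 and 29.7% at 33°C, 18.8, 19.4 and 20.9% at 35°C, and 38.4, 33.0 and 40.2% at 37°C. Every V4 library was above every V5 library, and V5 at 35°C was the lowest group with the narrowest spread. Mean ψ at V4 was 63.2% ± 9.14 (SD, n = 3), 65.3% ± 4.65, 52.6% ± 4.48 and 63.2% ± 5.12 from 31°C to 37°C. At V5 it was 39.6% ± 3.29, 27.8% ± 3.44, 19.7% ± 1.08 and 37.2% ± 3.75 (n = 3 each). The V5 order was thus 35°C lowest, then 33°C, with 37°C and 31°C overlapping.

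**Figure D2:**
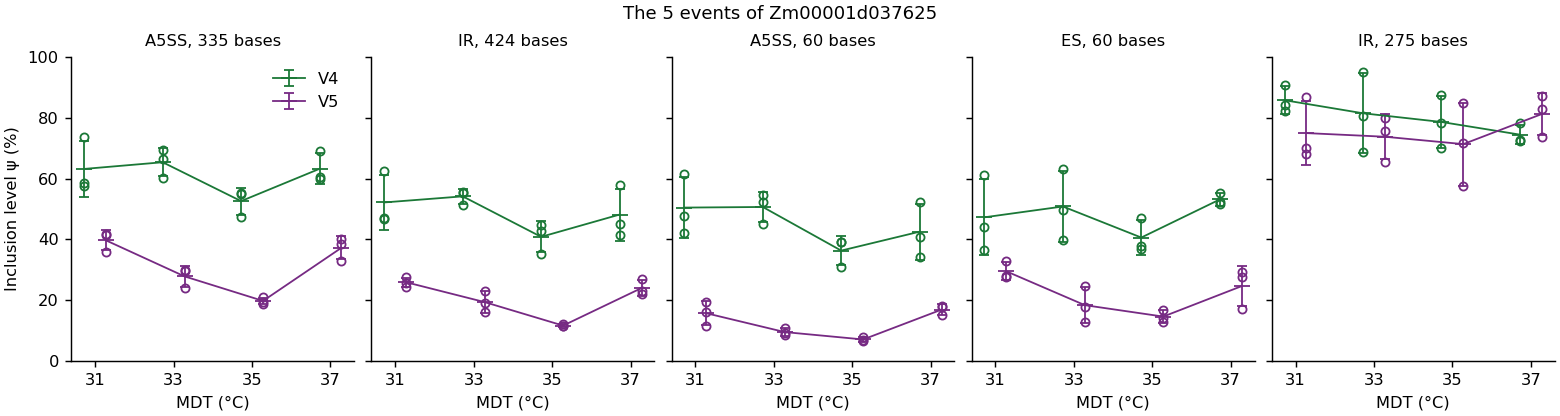
Inclusion level ψ in percent against MDT in °C for the 5 events of Zm00001d037625. Circles are single libraries, dashes and bars the mean ± SD of 3 libraries, green V4 and purple V5. In all panels but the 275-base IR the V5 libraries lie below the V4 libraries of the same MDT, and V5 is lowest at 35°C.

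The comparisons of V5 with V4 at 33°C and 37°C use no library on which Zm00001d037625 was chosen. At 33°C the 335-base A5SS fell by 37.6 points from V4 to V5 (SE 3.34, FDR = 3.11e-05). At 37°C it fell by 26.0 points (SE 3.66, FDR = 0.000862). Both differences exceed the spread between libraries in the quasi-binomial test. At 31°C and 35°C, where the V5 libraries also took part in the choice, mean ψ differed by -23.6 and -32.9 points. When limma was applied to log2 read ratios in place of the quasi-binomial test, the differences at 33°C and 37°C had an FDR of 0.0272 and 0.131 and were not called.

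The 60-base A5SS of Zm00001d037625, a form that keeps only the start of the intron, had the largest stage difference of the member events at 33°C. At V4 ψ was 52.4, 45.0 and 54.5% at 33°C and 52.4, 40.8 and 34.3% at 37°C. At V5 it was 10.8, 8.5 and 9.0% at 33°C and 17.6, 14.9 and 18.0% at 37°C. The V5 values stood far below the V4 values in both, and the V5 libraries were also close to each other. From V4 to V5 ψ fell by 41.2 points at 33°C (SE 2.96, FDR = 1.71e-05) and fell by 25.7 points at 37°C (SE 5.38, FDR = 0.00448). The call at 33°C also held under limma (FDR = 0.00849), and that at 37°C did not (FDR = 0.128). The call at 37°C was also lost on leaving out V5 replicate 2 or 3 or V4 replicate 1 or 2 (FDR 0.0248, 0.0132, 0.0246 and 0.0187). At 31°C and 35°C mean ψ went from 50.4% to 15.6% and from 36.3% to 7.00%.

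Retention of the whole 424-base intron of Zm00001d037625 followed the same course. At 33°C ψ was 55.7, 51.4 and 55.3% at V4 against 22.9, 15.9 and 19.1% at V5. At 37°C it was 48.1% ± 8.56 at V4 against 23.9% ± 2.69 at V5 (SD, n = 3 each). The stages did not overlap at either MDT. It fell by 34.8 points at 33°C (SE 2.44, FDR = 4.81e-05) and fell by 24.2 points at 37°C (SE 5.18, FDR = 0.00127), with an FDR under limma of 0.0261 and 0.137. At 31°C and 35°C the mean went from 52.1% to 25.8% and from 40.8% to 11.6%.

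The 60-base exon of Zm00001d037625 was measured with wider spread. Its ψ at 33°C was 49.5, 39.8 and 63.1% at V4 and 17.7, 12.6 and 24.6% at V5, and it fell by 32.5 points (SE 7.61, FDR = 0.00462). At 37°C it was 52.4, 55.4 and 51.5% at V4 and 29.1, 17.1 and 27.5% at V5, and it fell by 28.5 points (SE 3.94, FDR = 0.00625). Stages were apart at both MDTs, but the call at 33°C was lost without V4 replicate 3 (FDR = 0.0196). That at 37°C held only without V5 replicate 1 among the 6 fits that each left out 1 library, and the other 5 had an FDR between 0.0141 and 0.0460. Under limma neither was called (FDR 0.0635 and 0.224).

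The 275-base IR, which does not share the skipping junction, passed no stage test. Across all 24 libraries its ψ ran from 57.4 to 95.1%, on only 2 to 22 skipping reads per library. Group means lay between 71.3% (V5, 35°C) and 85.8% (V4, 31°C). The V5 minus V4 difference was -10.8 points at 31°C (SE 6.59, FDR = 0.258), -7.74 at 33°C (SE 8.74, FDR = 0.610), -7.30 at 35°C (SE 9.37, FDR = 0.547) and 6.77 at 37°C (SE 4.44, FDR = 0.439). These errors are wide enough that a difference of several points in either direction was not detectable at this depth.

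The reads behind ψ of Zm00001d037625 were also compared between stages, as a description. Mean skipping reads per library, the fully spliced junction, were 32.0, 25.3, 50.7 and 31.3 at V4 and 84.7, 120.0, 141.3 and 94.0 at V5 from 31°C to 37°C. Their V5 to V4 ratio was 2.65, 4.74, 2.79 and 3.00, whereas all event reads per library had a ratio of 1.55, 1.47, 1.31 and 1.23. Inclusion reads of the 335-base A5SS had a ratio of 1.03, 0.945, 0.619 and 1.04, and those of the 424-base IR 0.876, 0.945, 0.529 and 1.04. Inclusion reads of the 60-base A5SS had the lowest ratios, 0.508, 0.473, 0.372 and 0.840, and those of the 60-base ES had 1.27, 0.958, 0.680 and 0.846. Spliced junction reads were thus up by more than the library totals, and inclusion reads of all 4 events stood below those totals, most of all in the 60-base A5SS. Counts of reads in an event do not separate a change in splicing from a change in stability of either form.

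Within V4, where Zm00001d037625 was not chosen, no event of it passed the test against 31°C. The lowest FDR was that of the 275-base IR at 37°C (-11.3 points, SE 3.22, FDR = 0.119). At 35°C the difference was -10.6 points for the 335-base A5SS (SE 5.87, FDR = 0.365), -14.2 for the 60-base A5SS (SE 6.40, FDR = 0.278), -11.3 for the 424-base IR (SE 6.02, FDR = 0.248) and -6.67 for the 60-base ES (SE 7.96, FDR = 0.752). In the first 3 of these the 35°C libraries lay below all 31°C libraries, and 23.0% of all events tested in this comparison had groups that did not overlap. At 33°C the 335-base A5SS differed by 2.18 points (SE 5.92, FDR = 0.898) and at 37°C by 0.03 points (SE 6.05, FDR = 0.993), and both changed sign when single libraries were left out. Leaving out V4 31°C replicate 1 gave -0.21 and -2.35 points.

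Within V5, where the gene was chosen at 35°C, its values are a description. From 31°C to 35°C mean ψ differed by -19.9 points in the 335-base A5SS, -14.3 in the 424-base IR, -14.9 in the 60-base ES, -8.63 in the 60-base A5SS and -3.63 in the 275-base IR. At 33°C and 37°C the 335-base A5SS stood -11.8 and -2.40 points from 31°C. The 37°C libraries overlapped those at 31°C. Mean inclusion reads of the 335-base A5SS were 179.3 at 31°C, 113.0 at 35°C and 178.3 at 37°C, and mean skipping reads 84.7, 141.3 and 94.0, so both means at 37°C stood near those at 31°C. Single libraries of the 60-base ES stood at 32.9, 27.9 and 27.5% at 31°C against 16.8, 12.8 and 14.0% at 35°C. Those of the 60-base A5SS stood at 11.5, 19.2 and 16.2% against 6.5, 7.8 and 6.7%.

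Zm00001d032319, the U1-related factor, lies on the plus strand of chromosome 1 and has 4 A3SS events. The one with the most reads moves the 3′ splice site of a 989-base intron, chr1:222101887-222102875, upstream so that the last 806 bases, chr1:222102070-222102875, stay in the RNA. Inclusion reads were many, 108 to 210 per library, and skipping reads few, 3 to 38. Its ψ thus rests on few reads of the skipping form. It had a value in 22 of 24 libraries, and V4 at 37°C, the group for which the gene was listed, kept only 1 value. The libraries without a value may have had no skipping reads, so that 1 value may not stand for its group.

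At V4 ψ of the 806-base A3SS was 82.3, 59.1 and 67.4% at 31°C, 73.1, 84.9 and 77.4% at 33°C and 56.6, 74.6 and 66.3% at 35°C. The single library at 37°C had 82.4%, from 210 inclusion and 7 skipping reads, an inclusion share of reads of 96.8% (95% Wilson interval 93.5 to 98.4%, counting error only). At V5 ψ was 57.4, 70.1 and 58.7% at 31°C, 53.4, 32.6 and 45.0% at 33°C, 60.6, 49.2 and 49.8% at 35°C and 52.1, 62.5 and 62.0% at 37°C. V5 at 33°C was the lowest group, and most other groups overlapped.

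Within V5, which did not choose the gene, the 806-base A3SS differed from 31°C by -18.4 points at 33°C (SE 7.26, FDR = 0.393), -8.87 at 35°C (SE 5.48, FDR = 0.507) and -3.20 at 37°C (SE 5.27, FDR = 0.831). None passed the test, although the 33°C libraries all lay below the 31°C libraries, as groups did not overlap in 22.4% of all events tested there. The difference at 37°C turned to 0.18 without V5 37°C replicate 1 and to 0.82 without V5 31°C replicate 2.

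Between stages the 806-base A3SS stood at 78.5% ± 5.96 at V4 and 43.7% ± 10.5 at V5 at 33°C (n = 3 each). The difference of -34.8 points (SE 6.95) did not pass the threshold (FDR = 0.0228) in the quasi-binomial test. Under limma it did not pass either (FDR = 0.121), nor on leaving out any 1 of the 6 libraries (FDR 0.0133 to 0.0536). It did pass with edgeR (FDR = 0.00180) and with events valued in all 3 libraries of each group only (FDR = 0.00199). At 35°C the difference was -12.6 points (SE 6.39, FDR = 0.386) with overlapping libraries. At 31°C, where the V4 libraries took part in the choice, the means were 69.6% and 62.1%.

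**Figure D3:**
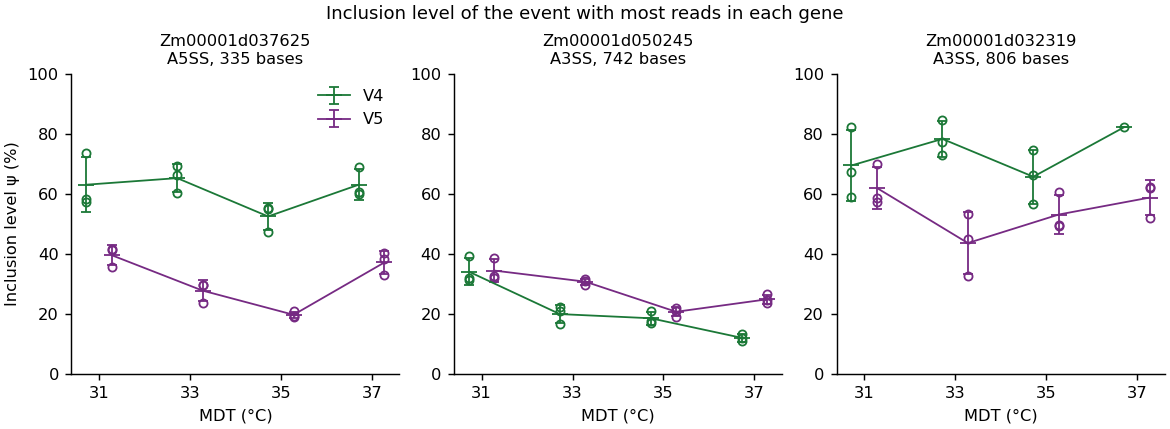
Inclusion level ψ in percent against MDT in °C for the event with the most reads in each gene. Circles are single libraries, dashes and bars the mean ± SD of 3 libraries (1 library and no bar for Zm00001d032319 at V4 at 37°C), green V4 and purple V5. Zm00001d037625 has V5 below V4 throughout, Zm00001d050245 has both stages near 34% at 31°C, and Zm00001d032319 has the widest bars.

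The other 3 events of Zm00001d032319 were close to 1 form in every library with a value. A 30-base extension, chr1:222104364-222104393, had a ψ of 0.5 to 2.7% in 8 libraries, from 1 to 3 inclusion reads. Another 30-base extension, chr1:222105095-222105124, was valued only at V5, in 4 libraries, at 1.5 to 2.8%. A 10-base extension next to it, chr1:222105125-222105134, had 93.9 to 98.3% in 6 libraries. Only the first of them entered a test, at 33°C between stages, where it stood at 0.80% and 0.92% in 2 libraries each (FDR = 0.955).

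Zm00001d050245, the SR-group gene, lies on the plus strand of chromosome 4, and its 4 events fall in 2 places. The event with the most reads is an A3SS that keeps 742 bases, chr4:75828390-75829131, at the end of a 1509-base intron, chr4:75827623-75829131. The others lie upstream, where a 761-base intron, chr4:75823726-75824486, and the 71-base exon after it, chr4:75824487-75824557, can be kept or removed. The 742-base and 761-base events share no junction, so their skipping reads come from different places in the RNA. Neither length is a multiple of 3.

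In the 742-base A3SS ψ at V4 was 31.2, 39.2 and 31.9% at 31°C, 20.9, 16.6 and 22.3% at 33°C, 16.9, 21.0 and 17.7% at 35°C and 13.4, 10.8 and 11.8% at 37°C. At V5 it was 32.5, 38.8 and 32.1% at 31°C, 29.6, 31.6 and 31.1% at 33°C, 21.9, 19.1 and 21.1% at 35°C and 26.5, 23.5 and 24.6% at 37°C. At V4 31°C was highest, 33°C and 35°C overlapped, and 37°C was lowest. At V5 35°C was lowest, 37°C came next, and 33°C lay just below 31°C.

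Since the gene was chosen in both stages, these temperature differences are a description. Against 31°C they were -14.2, -15.6 and -22.1 points at V4 and -3.70, -13.8 and -9.60 points at V5, for MDTs of 33, 35 and 37°C. Mean inclusion reads at V4 were 357.7, 213.7, 178.3 and 147.0 from 31°C to 37°C, against 118.3, 144.0, 131.3 and 182.3 skipping reads. The 37°C to 31°C ratio at V4 was 0.411 for inclusion and 1.54 for skipping reads, with 1.17 for all event reads. At V5 mean inclusion reads were 525.0, 604.0, 394.7 and 382.7, and the matching ratio was 0.729 for inclusion and 1.16 for skipping reads, with 0.924 for all event reads.

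**Figure D4:**
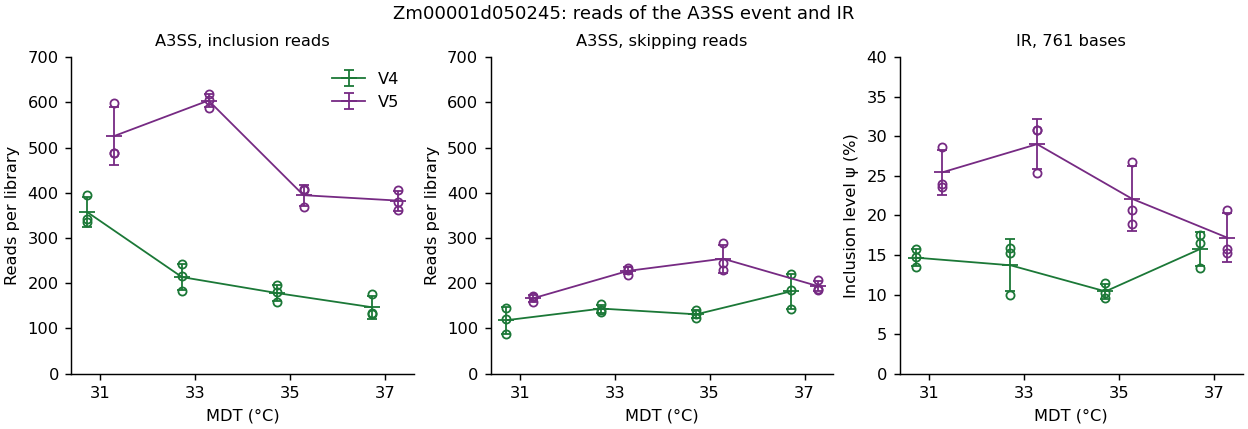
Zm00001d050245 by MDT in °C, with inclusion and skipping reads per library of the 742-base A3SS in the first 2 panels and ψ in percent of the 761-base IR in the third. Circles are single libraries, dashes and bars the mean ± SD of 3 libraries, green V4 and purple V5, and reads are not scaled for library totals. Inclusion reads at V4 go from a mean of 357.7 at 31°C to 147.0 at 37°C, and retention of the 761-base intron is higher at V5 at 31°C, 33°C and 35°C.

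Between stages only 33°C uses no library on which Zm00001d050245 was chosen. There the 742-base A3SS was 10.9 points higher at V5 (30.8% ± 1.04 against 19.9% ± 2.98, n = 3 each, SE 1.82, FDR = 0.00825). The call held on leaving out V4 replicate 3 and was lost without any other of the 6 libraries, with an FDR of 0.0117, 0.0192 and 0.0299 without V5 replicates 1, 2 and 3 and 0.0127 and 0.0169 without V4 replicates 1 and 2. Under limma the FDR was 0.281. At the other MDTs, described without a test, the V5 minus V4 difference was 0.37, 2.17 and 12.9 points in the order 31°C, 35°C, 37°C. The stages overlapped at 31°C and 35°C and were apart at 37°C, where V4 ranged from 10.8 to 13.4% and V5 from 23.5 to 26.5%.

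Retention of the 761-base intron of Zm00001d050245 had another profile over MDT than the A3SS of the same gene. At V4 ψ was 14.8, 15.7 and 13.5% at 31°C, 15.3, 15.9 and 9.9% at 33°C, 10.2, 9.6 and 11.4% at 35°C and 16.5, 13.3 and 17.5% at 37°C. At V5 it was 24.0, 28.7 and 23.6% at 31°C, 25.4, 30.8 and 30.8% at 33°C, 18.9, 26.7 and 20.7% at 35°C and 20.7, 15.2 and 15.7% at 37°C. The stages were apart at 31°C, 33°C and 35°C and overlapped at 37°C.

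The 761-base IR rose from V4 to V5 by 10.8 points at 31°C (SE 1.76, FDR = 0.00443), by 15.3 at 33°C (SE 2.61, FDR = 0.00118) and by 11.7 at 35°C (SE 2.42, FDR = 0.00118). At 37°C the difference was 1.43 points (SE 2.17, FDR = 0.757), and its difference from that at the other MDTs was not tested. The call at 31°C was lost without V5 replicate 2 (FDR = 0.0204), V4 replicate 1 (FDR = 0.0170) or V4 replicate 3 (FDR = 0.0178). Under limma none of the 3 was called (FDR 0.249, 0.0805 and 0.0742). Inclusion reads had a V5 to V4 ratio of 2.17, 3.27 and 3.58 from 31°C to 35°C, above the 1.55, 1.47 and 1.31 of all event reads. Skipping reads had a ratio of 1.09, 1.27 and 1.45, below that of all event reads at 31°C and 33°C and above it at 35°C. The median V5 minus V4 difference over all IR events tested was 0.05, 0.38 and 0.27 points at these MDTs.

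Temperature differences of the 761-base IR are again a description. At V4 they were -0.98, -4.27 and 1.10 points against 31°C for MDTs of 33, 35 and 37°C, and at V5 3.57, -3.33 and -8.23 points. The 71-base exon and an 832-base A5SS that keeps it together with the intron, chr4:75823726-75824557, were valued in 4 V4 libraries only. They were nearly all inclusion, 97.9 to 99.0% and 92.4 to 96.9%, with 1 or 2 skipping reads of the 2800-base junction that both share. The high ψ of the 832-base A5SS is relative to that rare junction and does not measure how often the 761-base intron was retained. In the same 4 libraries ψ of the 761-base IR was 9.9% (33°C replicate 3), 9.6 and 11.4% (35°C replicates 2 and 3) and 13.3% (37°C replicate 2).

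Counted over the genes, 8 events entered the test at 31°C between stages and 4 were called, 1 higher and 3 lower at V5, where 0.843% of 6764 events tested in the series were called. At 33°C 6 of 9 were called (2 higher, 4 lower), against 2.48% of 6931. At 35°C 5 of 8 were called (1 higher, 4 lower), against 3.08% of 7298. At 37°C 5 of 7 were called (1 higher, 4 lower), against 1.08% of 7063. The share of all events called higher at V5 was 0.370%, 1.05%, 1.41% and 0.255%, and lower 0.473%, 1.43%, 1.67% and 0.821%. Under limma the counts were 0, 1, 1 and 0 from 31°C to 37°C. The count at 31°C was 2 without V5 replicate 2 or V4 replicate 1 or 3, and that at 37°C was 3 without V5 replicate 2 or 3 or V4 replicate 1 or 2. At 31°C, 35°C and 37°C these counts hold events whose libraries took part in the choice. At every MDT the 4 events of Zm00001d037625 with a common junction count it 4 times, so nothing is read from these counts. Median ψ difference over the members tested was -14.3, -32.5, -19.3 and -24.2 points from 31°C to 37°C, and over all events tested -0.03, -0.03, -0.10 and -0.23 points.

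**Figure D5:**
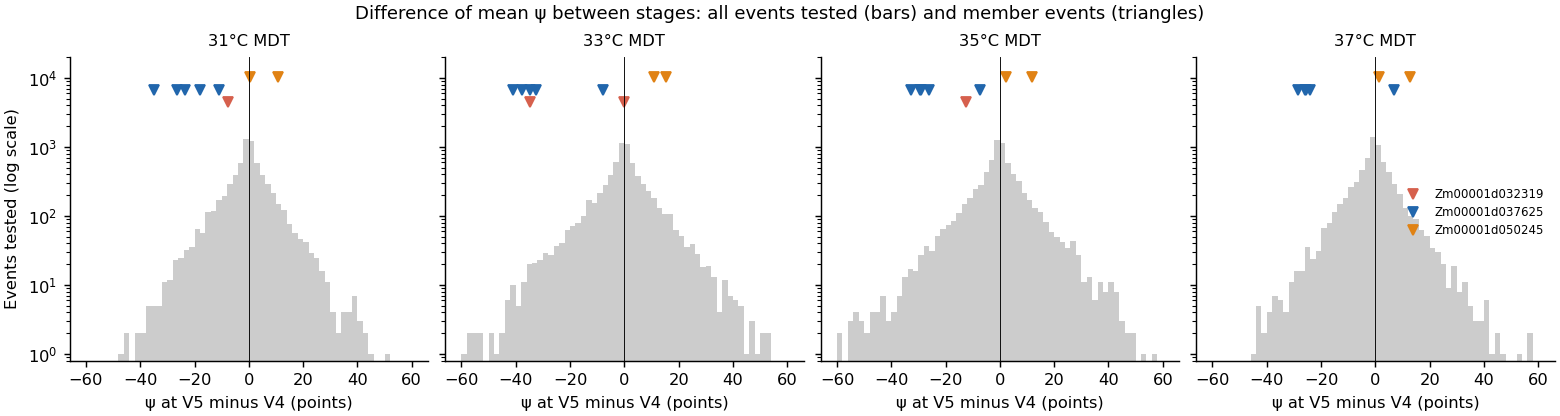
Difference of mean ψ, V5 minus V4 in percentage points, at each MDT. Grey bars count all events tested on a log scale, with differences beyond the axis in the end bars, and triangles mark the events of the 3 genes at an arbitrary height. Of Zm00001d037625, 4 of the 5 events lie to the left at every MDT, down to -41.2 points at 33°C, while the 275-base IR is at 6.77 points at 37°C, and the events of Zm00001d050245 lie at or to the right of 0.

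Against 31°C the choice of the genes used several of the contrasts, so the following counts partly restate that choice and nothing is read from them. The members called were 0 of 8, 1 of 8 and 1 of 7 at V4 and 0 of 8, 4 of 8 and 0 of 8 at V5, for MDTs of 33, 35 and 37°C. The share of all events called in these comparisons was 0.164%, 0.826% and 1.60% at V4 and 0.466%, 1.87% and 1.19% at V5. The events called at V4 were the 742-base A3SS of Zm00001d050245 both times. At V5 at 35°C they were that event and the 335-base A5SS, the 424-base IR and the 60-base ES of Zm00001d037625. In the 3 comparisons with 0 calls the quasi-binomial test gave an unadjusted p under 0.05 for 1, 5 and 2 member events, for V4 at 33°C, V5 at 33°C and V5 at 37°C, and edgeR called none of them.

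The other regulator genes that the study named, SRP, SCL33, SR34, SR45a and SPFcc1-like, were taken as a list of 5 for comparison. The study picked them on these same libraries, so their counts are not independent evidence. Between stages 4 of 32, 10 of 33, 11 of 36 and 3 of 32 of their events were called from 31°C to 37°C. Of all events tested 0.843%, 2.48%, 3.08% and 1.08% were called in the same comparisons. The list's calls fell in 2, 4, 3 and 1 of the 5 genes, and 0, 0, 1 and 0 of them were higher at V5. The median difference over the list's events tested was -6.38, -8.21, -1.97 and -0.43 points. Against 31°C, for MDTs of 33, 35 and 37°C, the list had 2 of 31, 4 of 31 and 3 of 30 events called at V4. At V5 it had 7 of 33, 10 of 33 and 4 of 33. These calls fell in 1, 2 and 2 genes at V4 and in 4, 5 and 2 at V5. The share of all events called was 0.164%, 0.826% and 1.60% at V4 and 0.466%, 1.87% and 1.19% at V5.

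The genes whose ψ ran most like the event with the most reads in each gene were found by Pearson correlation over libraries, as a description over points that share stage and MDT. For the 335-base A5SS of Zm00001d037625 they were an IR of Zm00001d048692 (r = 0.908 over 24 libraries), an A5SS of Zm00001d047847, which is SR45a (r = 0.905), and an A5SS of Zm00001d028034 (r = 0.885). Within V4 and V5 alone r was 0.828 and 0.275 for the Zm00001d048692 event, 0.639 and 0.881 for the SR45a event and 0.571 and 0.703 for the Zm00001d028034 event, so the likeness of the first was weak within V5. For the 742-base A3SS of Zm00001d050245 they were an A5SS of Zm00001d019672 (r = 0.831), an ES of Zm00001d012213 (r = 0.829) and an A3SS of Zm00001d015100 (r = 0.814), all over 24 libraries, with r from 0.821 to 0.901 within V4 and from 0.599 to 0.701 within V5. For the 806-base A3SS of Zm00001d032319 they were ES events of Zm00001d020834 (r = 0.871 over 22 libraries), Zm00001d032659 (r = 0.806) and Zm00001d025784 (r = 0.805), with r from 0.639 to 0.760 within V4 and from 0.631 to 0.847 within V5.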

How the data were processed

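Maize leaf RNA-seq reads were filtered, aligned to B73 with HISAT2 (2.0.4) and quantified with rMATS by the authors, who deposited 1 table per stage. Inclusion and skipping read counts were deposited unscaled, and ψ was deposited as a fraction from 0 to 1. The ψ values fit an effective skipping length of 149 bases, hence 150-base reads, longer than the labels state, which bears on the length correction in ψ. Printed positions count from 1. Of the columns of single samples 67 were assigned by name, and 5 were not assigned and not used. For replicates 2 and 3 at V4 31°C, ψ and skipping reads gave back the inclusion reads (17 values, of which 13 allowed 1 whole count and the others 2), and V4 33°C ψ was computed from reads.

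Events averaging 10 or more reads, with ψ known for 2 or more of the 3 libraries per group, entered a quasi-binomial test. Its dispersion was moderated with limma (3.58.1, R 4.3.3) and held at 1 or above, with Benjamini-Hochberg adjustment over all events of a type. The test was first run on simulated reads. Alternatives were edgeR (4.0.16), limma on log2 ratios (0.5 reads added), other filters, thresholds and adjustments, a replicate block, a spread shared over MDTs, pooled reads, uncorrected read shares, Spearman correlation and leaving out each library. Intervals cover counting error only. The genes, lists and tests were chosen with earlier results of these data known. Named were all events of the 3 genes and, by correlation, the 3 genes most like each. A list of further spliceosome genes and gene sequences were not used here.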

Additional observations from a re-analysis of the deposited data

Results flagged for a closer look

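In 2 events every V4 library of a higher MDT lay on one side of the 31°C mean and every V5 library on the other side. The 806-base A3SS of Zm00001d032319 differed at 33°C by 8.88 points at V4 and by -18.4 points at V5. The V4 libraries at 31°C took part in the choice of this gene, so the difference between the stages is given without a test. The 60-base ES of Zm00001d037625 differed at 37°C by 5.87 points at V4 and by -4.87 points at V5. It is also given without a test, because the V5 libraries at 31°C took part in the choice of that gene. Nothing is concluded from either difference. Single outlying libraries within a group were not tested for, since each group held only 3.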

How the results depend on the processing

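The number of member events called kept within 1.5 times its value in most alternatives. With limma on log2 ratios it was 0 for 35°C/31°C at both stages, 0 for 37°C/31°C at V4, and 0, 1, 1 and 0 for V5 against V4 at 31°C, 33°C, 35°C and 37°C. With a value required in all 3 libraries it was 1 for V4 33°C/31°C and 2 for V5 37°C/31°C, which had 2 at an FDR of at most 0.05 and 1 with a spread shared by the 4 MDTs. The replicate block gave 1 for V4 33°C/31°C. Leaving out single libraries gave 0 to 1 for V4 35°C/31°C (0 without V4 35°C replicate 3 or V4 31°C replicate 1), 0 to 1 for V5 37°C/31°C (1 without V5 37°C replicate 1 or V5 31°C replicate 3), 2 to 4 for the stages at 31°C (2 without V5 31°C replicate 2 or V4 31°C replicates 1 or 3) and 3 to 5 at 37°C (3 without V5 37°C replicates 2 or 3 or V4 37°C replicates 1 or 2). The cause was not tested. Mean differences changed sign on leaving out single libraries for the 335-base A5SS of Zm00001d037625 at V4 33°C/31°C (-0.71 to 7.44 points) and V4 37°C/31°C (-2.92 to 5.3), the 806-base A3SS of Zm00001d032319 at V4 35°C/31°C (-9.02 to 2.58) and V5 37°C/31°C (-5.53 to 0.82) and the 742-base A3SS of Zm00001d050245 between stages at 31°C (-1.8 to 2.92). Of the alternatives for mean differences in the event with the most reads in each gene, 422 kept direction and call (or, without a test, moved by less than 1 SD). Of the rest, 12 changed sign, 17 lost a call, 4 gained one and 10 kept direction but moved by more than 1 SD. Settings that change only the test, filter or adjustment left these mean differences unchanged, so without a test they could only count as kept. The lost calls include stage comparisons described above without a test, such as the 335-base A5SS at 31°C. Nothing is therefore read from the 422.

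Same-numbered replicates of the groups compared did not deviate together (30 correlations from -0.0325 to 0.0404, 8 of them the best for their library), so the numbers do not pair the libraries. With the replicate block the 806-base A3SS of Zm00001d032319 was called between stages at 33°C (-34.8 points, FDR = 0.00851), and V4 33°C/31°C had 1 member event called in place of 0. Uncorrected read shares reduced that -34.8 to -13.3 points. With Spearman in place of Pearson correlation 1 of the 3 most similar genes stayed for Zm00001d037625 and 1 for Zm00001d032319. Few skipping reads limit Zm00001d032319 and the 275-base IR of Zm00001d037625.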
